A study of Homo sapiens with 24 samples.

Results

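Gene expression was compared between *ROR2* knockdown (*ROR2* KD) cells and their control line on day 21 of neural induction. Both lines derived from HiPS-RIKEN-2A (R-2A), a human induced pluripotent stem cell (hiPSC) line, and carried a lentiviral short hairpin RNA construct selected with puromycin. The construct was directed against *ROR2* in the KD line and was a non-mammalian control hairpin (shControl, sh-C) in the control line. Cells received the STEMdiff SMADi Neural Induction Kit and were passaged every 7 days, and total RNA was hybridised to Clariom D arrays. The series held 24 arrays, 3 biological replicates of each line on days 0, 7, 14 and 21, and the 6 arrays labelled day 21 made up this comparison. It was described over the 37295 transcript clusters that carried a gene symbol, out of 135750 clusters tested, and over 33616 genes when each symbol was represented by 1 cluster. Which of the study's *ROR2* hairpins was on the arrays is not given in the sources used here, and each arm was a single transduced line, so that an effect of *ROR2* and any other difference between the lines cannot be told apart.

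*ROR2* is a receptor tyrosine kinase that binds *WNT5A* and signals without β-catenin, in part through the planar cell polarity machinery. Blocking both branches of SMAD signalling turns pluripotent cells into anterior neuroectoderm, whose progenitors carry *PAX6*, *SOX1* and *NES*. Such progenitors acquire a dorsal or ventral forebrain identity, the latter marked by *NKX2-1*, *LHX6* and *LHX8*, and GABAergic precursors of the forebrain express *DLX* genes before they leave the cell cycle and build synapses. The comparison asked which of these programmes differed between *ROR2* KD cells and control cells at the last time point.

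All values are log2 signals as deposited, and each difference is *ROR2* KD minus control on that scale. Array values are given in the order of replicates 1 to 3. A gene was called when limma's moderated test gave a Benjamini-Hochberg adjusted p under 0.05 and the fold was above 2. The background level of an array was taken from its 23 background probe sets, as their 95th percentile, and lay between 7.30 and 8.39 on the 6 arrays. A gene under it on every array of one line has only a lower bound for its fold, which is given as "at least". A difference printed for such a gene is the measured one and not a bound, and no fold is given where the bound does not exceed 1 or where both lines were under background. In bulk RNA, fewer cells of a type and less RNA per cell cannot be told apart.

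Of the 37295 clusters, 796 were higher in *ROR2* KD cells (2.13%) and 890 were lower (2.39%), 4.52% in all. Counted by gene, 725 of 33616 were higher (2.16%) and 844 were lower (2.51%), together 4.67%. Among 17395 protein-coding genes, 564 were higher (3.24%) and 779 lower (4.48%). Among 9401 genes above background on at least 3 of the 6 arrays, 466 were higher (4.96%) and 578 lower (6.15%). The counts of the gene lists below are to be read beside these shares. The higher genes reached further. A fold above 4 was measured for 246 higher and 112 lower genes, a fold above 16 for 46 and 14, and a fold above 64 for 11 and 3. The groups of 3 arrays did not overlap for 717 of the 725 higher and 842 of the 844 lower genes, against 10% and 13.5% of all genes. Both lines were above background for 272 of the higher and 445 of the lower genes, whereas 179 and 220 were under background on all 6 arrays.

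*ROR2* itself read 4.25, 4.64 and 4.48 on the control arrays and 3.52, 3.43 and 3.75 on the *ROR2* KD arrays. All KD arrays were below all control arrays, and all 6 were under background. The difference was -0.89 (SE 0.26, adjusted p = 0.0823) and was not called. With both lines under background, it does not give the level of *ROR2* that remained. On day 14, when 0.904% of all clusters were called higher and 0.724% lower, the difference was -2.56 (adjusted p = 1.98e-06) and on day 7 it was -2.62. The change of the difference between days 14 and 21 was 1.68 (adjusted p = 0.0342), over an interval in which the control signal fell by 2.09.

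Among the genes with the largest positive differences, *SST*, the neuropeptide somatostatin, read 3.87, 3.95 and 4.02 in control cells and 13.62, 13.19 and 12.93 in *ROR2* KD cells. *PAX6*, a transcription factor of dorsal forebrain and eye progenitors, read 5.03, 5.29 and 4.72 against 15.51, 15.61 and 15.65. Both genes were under background on the 3 control arrays and above it on the 3 KD arrays, so the fold was at least 30.3 for *SST* and at least 153.0 for *PAX6*. *SEMA3C*, a secreted semaphorin that steers axons, read 8.34, 8.16 and 8.06 in control cells and 15.97, 16.21 and 16.13 in *ROR2* KD cells. The difference was 7.92 (SE 0.23, adjusted p = 1.94e-16). *SEMA3E*, a related ligand, read 3.86, 4.13 and 3.48 against 9.59, 10.29 and 10.56, a fold of at least 3.53. The groups did not overlap in either semaphorin, which was a condition for a place among the largest differences.

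*CLSTN2*, a synaptic calsyntenin, read 5.64, 5.30 and 5.01 in control cells and 13.51, 13.28 and 13.13 in *ROR2* KD cells, at least 31.6-fold higher. *SLITRK6*, a transmembrane protein of neurite growth, read 6.52, 6.19 and 6.83 against 12.89, 12.84 and 13.49, at least 26.9-fold higher. *NTRK2*, the receptor of brain-derived neurotrophic factor, read 8.30, 9.21 and 8.05 against 16.29, 16.47 and 16.47, a difference of 7.88 (SE 0.30, adjusted p = 3.11e-14). These genes were near or under background in the control line and well above it on each KD array. *KCNJ13*, an inwardly rectifying potassium channel, read 5.0, 4.72 and 4.95 against 11.58, 11.36 and 11.77, at least 9.45-fold higher. *HS3ST3B1*, a heparan sulphate 3-O-sulphotransferase, read 5.79, 6.28 and 6.43 against 12.65, 12.59 and 12.22, at least 17.8-fold higher. The remaining members of the 12 largest protein-coding differences were *FZD7*, a Frizzled receptor (at least 54.2-fold), *TKTL1*, a transketolase-like protein (at least 42.8-fold), and *AMBN*, a tooth enamel matrix protein (at least 5.43-fold).

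Among genes lower in *ROR2* KD cells, *ZIC1*, a zinc finger factor of dorsal neural and neural crest development, read 14.69, 14.59 and 14.56 in control cells and 6.15, 5.47 and 6.24 in *ROR2* KD cells. *SPON1*, the axon guidance protein spondin, read 12.08, 11.56 and 11.57 against 5.32, 4.95 and 5.26. *NKX2-1*, which specifies the ventral forebrain, read 13.22, 12.96 and 12.82 against 7.56, 7.02 and 6.86. In these genes the KD arrays were all under background, and the control signal was at least 118.0-fold, 16-fold and 38.6-fold higher respectively. *NNAT*, an imprinted membrane protein of developing neurons, read 13.56, 12.43 and 13.31 against 7.97, 7.53 and 7.64, a difference of -5.39 (SE 0.35, adjusted p = 4e-10). *CD82*, a tetraspanin, read 12.69, 12.17 and 12.19 against 7.48, 7.28 and 6.87, and *FBLN1*, the matrix protein fibulin, read 11.48, 11.43 and 11.44 against 7.48, 6.0 and 6.49. Control cells exceeded KD cells at least 24.6-fold in *CD82* and at least 13.2-fold in *FBLN1*. The others of the 12 were *LHX6*, *LHX8*, *AK4*, *CDH9*, *LITAF* and *OLIG2*, with differences from -4.83 to -4.09. *OLIG2* was above background on only 1 control array and no KD array, so that control cells were at least 1.11-fold higher.

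**Figure D1:**
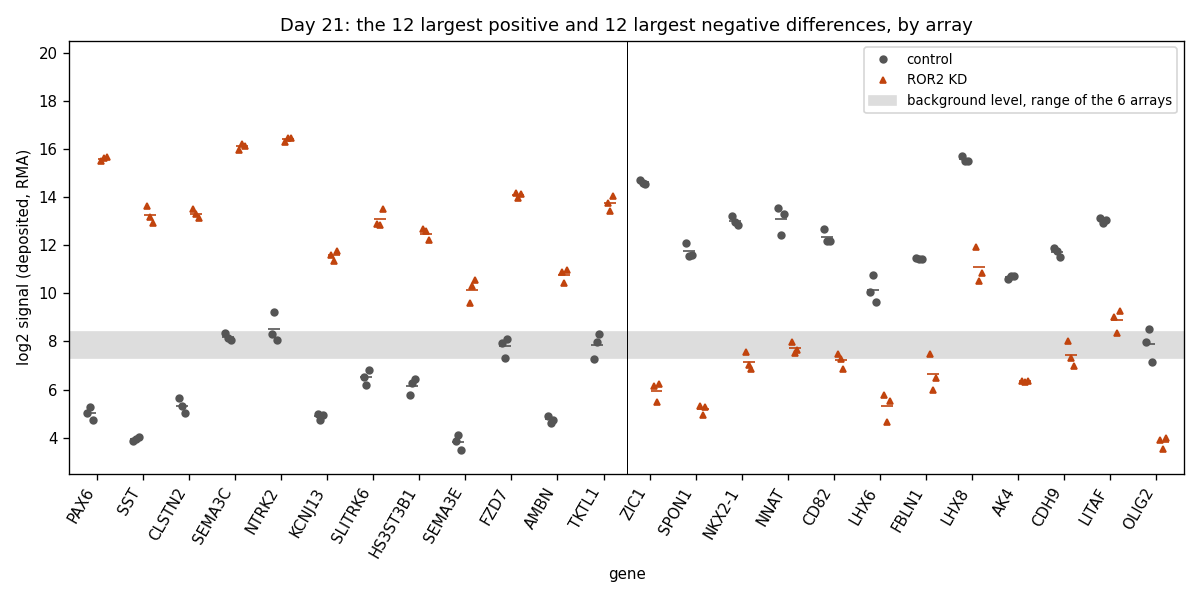
The log2 signal (vertical axis) of each day 21 array is plotted for the 12 protein-coding genes with the largest positive and the 12 with the largest negative difference (horizontal axis). Circles are the 3 control arrays, triangles the 3 *ROR2* KD arrays, and the grey band is the range of the background level, 7.30 to 8.39. The 24 genes were taken only from called genes whose lines did not overlap, so the gap between the lines was a condition of selection.

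The 250 bases before the start of *SST*, under background in control cells, are shown as a reference sequence (RefSeq, GRCh38.p14, chr3:187670395-187670644, minus strand), with the palindromic cAMP response element TGACGTCA in capitals, 47 bases before the start.
SST: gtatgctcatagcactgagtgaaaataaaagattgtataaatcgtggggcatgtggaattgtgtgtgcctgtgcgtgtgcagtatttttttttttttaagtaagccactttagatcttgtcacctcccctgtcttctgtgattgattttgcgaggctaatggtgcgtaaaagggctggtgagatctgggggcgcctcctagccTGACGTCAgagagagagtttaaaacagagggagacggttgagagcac
The element TGACGTCA, searched on both strands, was in 1.77% of 27305 promoters of this length. Of the 11 called genes of the forebrain GABAergic list, 7 had a promoter sequence, and it was in those of *DLX6*, *MAF* and *SST*. A match of letters is a description and not evidence of binding.

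Of 20 measured genes of forebrain GABAergic neurons, 9 were called higher, 2 lower and 9 were not called, with a median difference of 0.53 against -0.02 over all genes. *GAD2*, which makes GABA at terminals, read 7.85, 8.74 and 8.29 in control cells and 13.15, 12.94 and 12.82 in *ROR2* KD cells, a difference of 4.68 (SE 0.32, adjusted p = 1.1e-09). *SLC32A1*, the vesicular GABA transporter, read 6.79, 7.39 and 6.75 against 9.36, 9.84 and 9.25, at least 2.22-fold higher. *MAF*, a factor of maturing interneurons, read 4.73, 4.93 and 4.74 against 9.89, 9.49 and 8.70, at least 2.04-fold higher. Every KD array exceeded every control array in all of them. *GAD1*, the second GABA-synthesising enzyme, read 9.22, 9.72 and 8.97 against 10.22, 9.84 and 9.90, and its difference of 0.68 was not called (adjusted p = 0.507).

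The *DLX* genes, homeobox factors of forebrain GABAergic precursors, differed less than on day 14. *DLX1* read 13.53, 13.43 and 13.35 in control cells and 15.48, 15.53 and 15.13 in *ROR2* KD cells, a difference of 1.94 after 6.18 on day 14. The difference in *DLX5* was 1.45 after 6.48. *DLX6* kept a difference of 2.73 after 2.96, whereas *DLX2* read 10.81, 10.50 and 10.40 against 11.09, 11.19 and 10.58 and was not called (0.38, adjusted p = 0.727). *SP8*, a zinc finger factor of interneuron progenitors, showed no difference past the threshold on day 14 (0.06) and read 7.66, 7.04 and 7.70 against 11.35, 11.60 and 10.97 on day 21. *CALB2*, the calcium-binding protein calretinin, read 2.90, 3.05 and 3.04 against 6.77, 7.43 and 7.65. *CALB1*, the related calbindin, went the other way, with 7.02, 7.16 and 7.58 against 5.13, 5.45 and 5.79 and all 6 arrays under background. The lower member besides *CALB1* was *SP9*, a zinc finger factor (-1.44, also under background on all 6 arrays). The adjusted p of *SP9*, 0.0058, was 0.0677 without control replicate 1.

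Of 24 ventral forebrain and hypothalamic genes, 6 were lower and 2 higher (median -0.27). The higher members were *ISL1* and *SIM1*, factors of ventral and hypothalamic neurons, and neither was called by limma on the 6 day 21 arrays alone (adjusted p = 0.235 and 0.0783). *ISL1* had an adjusted p of 0.0962 without control replicate 2 and 0.143 without *ROR2* KD replicate 2, and *SIM1* one of 0.0561 without control replicate 1, whereas 5 or 6 genes were called lower under these settings. *LHX8*, a factor of ventral cholinergic and GABAergic precursors, read 15.72, 15.51 and 15.50 in control cells and 11.92, 10.53 and 10.83 in *ROR2* KD cells. The difference was -4.48 (SE 0.37, adjusted p = 2.49e-08) after -0.22 on day 14. *LHX6*, which acts below *NKX2-1* in interneuron precursors, read 10.07, 10.74 and 9.65 against 5.78, 4.66 and 5.53, so that control cells were at least 5.35-fold higher. The groups stood apart in both, as their place among the largest differences required. *SHH*, the ventralising ligand, differed by -1.18 (adjusted p = 0.0083) at signals under background on all 6 arrays. Its adjusted p was 0.0635 without *ROR2* KD replicate 2 and 0.0535 without control replicate 3.

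Neural progenitor genes did not move as a block. Of 20, 5 were called higher and 2 lower, and the median was 0.10. *SLC1A3*, a glutamate transporter of radial glia, read 10.32, 9.93 and 10.13 in control cells and 13.26, 13.38 and 13.11 in *ROR2* KD cells. *SOX3*, a SOXB1 factor of progenitors, read 6.04, 5.83 and 5.99 against 8.36, 7.87 and 8.11. The lines did not overlap in either, with a difference of 3.13 for *SLC1A3*, and *SOX3* was under background on the 3 control arrays (adjusted p = 0.00027). *SOX1* read 10.90, 10.46 and 10.34 against 11.14, 11.01 and 10.45, and its difference of 0.30 was not called (adjusted p = 0.789). *NES*, an intermediate filament of progenitors, read 15.71, 15.51 and 15.59 against 14.80, 14.35 and 14.42. Its difference of -1.08 (adjusted p = 0.000745) shrank to -0.99, under the fold threshold, without *ROR2* KD replicate 2. *SOX2*, another SOXB1 factor, differed by -0.86 (adjusted p = 0.00357), also under the fold threshold.

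Among 16 SOX, MEIS and PBX factors, 3 were higher (18.8%) and 1 lower (6.25%), with a median of -0.19. Among 18 genes of the eye field and pigment cells, 1 was higher (5.56%) and 2 were lower (11.1%), with a median of 0.08. The shares of all genes above background were 4.96% and 6.15%. *MEIS1* read 9.95, 10.18 and 10.04 in control cells and 13.41, 13.33 and 13.44 in *ROR2* KD cells, and *MEIS2* read 14.36, 14.54 and 14.13 against 17.02, 17.11 and 16.77. Both act with PBX and HOX proteins, and *MEIS2* is abundant in the embryonic striatum of mice. *OTX2*, a factor of forebrain and midbrain, read 14.79, 14.67 and 14.93 against 11.69, 11.40 and 11.32, a difference of -3.33 (SE 0.20, adjusted p = 1.2e-10). *SIX3*, of the anterior forebrain and eye field, read 8.79, 8.62 and 9.69 against 12.33, 12.39 and 11.88, a difference of 3.16. The arrays of the lines did not overlap in any of the 4 genes.

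Telencephalic and dorsal genes changed little besides *PAX6*. Of 20, 2 were higher and none lower, and 5 were above background on at least 3 of the 6 arrays. *LHX2*, a selector of cortex, differed by 0.79 (adjusted p = 0.143). *TLE4*, a Groucho co-repressor, was the firmer of the called members (1.75, adjusted p = 1.6e-07). Among 19 midbrain and dopaminergic genes, 2 were higher and 2 lower. *TH*, tyrosine hydroxylase, read 5.46, 4.97 and 5.12 against 7.34, 7.12 and 7.42, under background throughout. *EN1* (0.15) and *FOXA2* (-0.14), both of midbrain dopaminergic progenitors, were not called. *FOXA2* was under background on all 6 arrays, and 1 of the 19 genes was above it on at least 3. None of 9 HOX genes was called by limma in either direction, but none of them was above background on at least 3 of the 6 arrays. None of them had an unadjusted p under 0.05, which 18.0% of all clusters had, and none passed a t-test at that level with a fold above 2.

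Genes of synapses and excitability were called higher more often than lower. Of 24 genes of synaptic vesicles and release, 10 were called higher and 1 lower, with a median of 0.93 after 0.28 on day 14. *SNAP25*, a SNARE protein of vesicle fusion, read 9.28, 8.98 and 8.60 in control cells and 10.69, 10.55 and 10.87 in *ROR2* KD cells. *PCLO*, an active zone scaffold, read 8.45, 8.98 and 8.66 against 10.78, 10.50 and 10.46, and *CADPS*, which primes dense-core vesicles, read 10.20, 9.97 and 10.40 against 12.06, 11.99 and 11.83. Differences were 1.75 for *SNAP25*, 1.88 for *PCLO* and 1.77 for *CADPS*, with no overlap between the lines. *CADPS2*, the paralogue of *CADPS*, was the lower member, with 9.26, 8.72 and 8.95 against 7.72, 6.71 and 6.92. The 2 paralogues thus differed in opposite directions.

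Of 26 receptors for glutamate and GABA, 11 were higher and 1 lower (median 0.67, after 0.09 on day 14). *GRIA2*, a subunit of AMPA receptors, read 8.87, 8.62 and 8.91 in control cells and 13.76, 13.81 and 12.07 in *ROR2* KD cells. All AMPA receptor genes were called higher, with differences of 2.51 for *GRIA1*, 4.41 for *GRIA2*, 1.85 for *GRIA3* and 1.58 for *GRIA4*. The adjusted p of *GRIA4* was 0.0087, but 0.0811 without *ROR2* KD replicate 1 and 0.0847 without control replicate 3. *GRIN2B*, an NMDA receptor subunit, read 2.85, 2.31 and 3.54 against 7.95, 8.34 and 7.87, and was above background on 2 KD arrays. *GABBR2*, of the metabotropic GABA receptor, read 6.31, 6.15 and 5.84 against 9.31, 9.69 and 8.95, and *GABRA3*, of the ionotropic receptor, read 10.35, 10.14 and 10.48 against 12.41, 12.40 and 12.72. In these the KD arrays were uniformly higher. *GRIK3*, a kainate receptor subunit, was the lower member, with 12.69, 13.06 and 12.90 against 11.38, 10.98 and 11.17, whereas *GRIK2*, another subunit, was higher by 1.96.

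Synaptic adhesion and scaffold genes gave 10 higher and 1 lower of 29 (median 0.63). *CNTN1*, an axonal contactin, read 8.60, 8.48 and 8.79 in control cells and 13.20, 13.63 and 13.57 in *ROR2* KD cells, a difference of 4.84 (SE 0.29, adjusted p = 8.5e-11). *CNTNAP2*, a neurexin-like partner of contactins, read 9.20, 8.86 and 9.0 against 11.31, 10.94 and 11.36. The lines were apart in both. *NLGN1*, a neuroligin of excitatory synapses, was the lower member (-1.41), and was not past the threshold when limma was fitted to the 6 day 21 arrays alone (adjusted p = 0.0632).

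Of 26 potassium channel genes, 7 were higher and 2 lower (median 0.46), and of 22 sodium and calcium channel genes, 5 were higher and 1 lower (median 0.38). *SCN2A*, a neuronal sodium channel, read 7.10, 7.23 and 7.49 in control cells and 10.47, 9.92 and 9.43 in *ROR2* KD cells, at least 3.05-fold higher. *KCNQ3*, a channel of the M current, read 9.02, 8.59 and 9.26 against 6.69, 6.79 and 6.82, at least 2.33-fold lower. Of 23 further genes of postmitotic neurons, 5 were higher and none lower (median 0.40). *MAPT*, the axonal tau protein, read 10.58, 9.97 and 10.53 against 11.95, 12.30 and 11.98. *DCX*, a microtubule protein of migrating neurons, read 16.57, 16.73 and 16.58 against 17.04, 16.96 and 16.94, a difference of 0.35 that was not called (adjusted p = 0.631). *MAP2*, the dendritic microtubule protein, was not called either (0.27, adjusted p = 0.716). With limma on the 6 day 21 arrays alone, the higher counts were 6 for vesicle genes, 7 for adhesion genes and 8 for receptors.

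**Figure D2:**
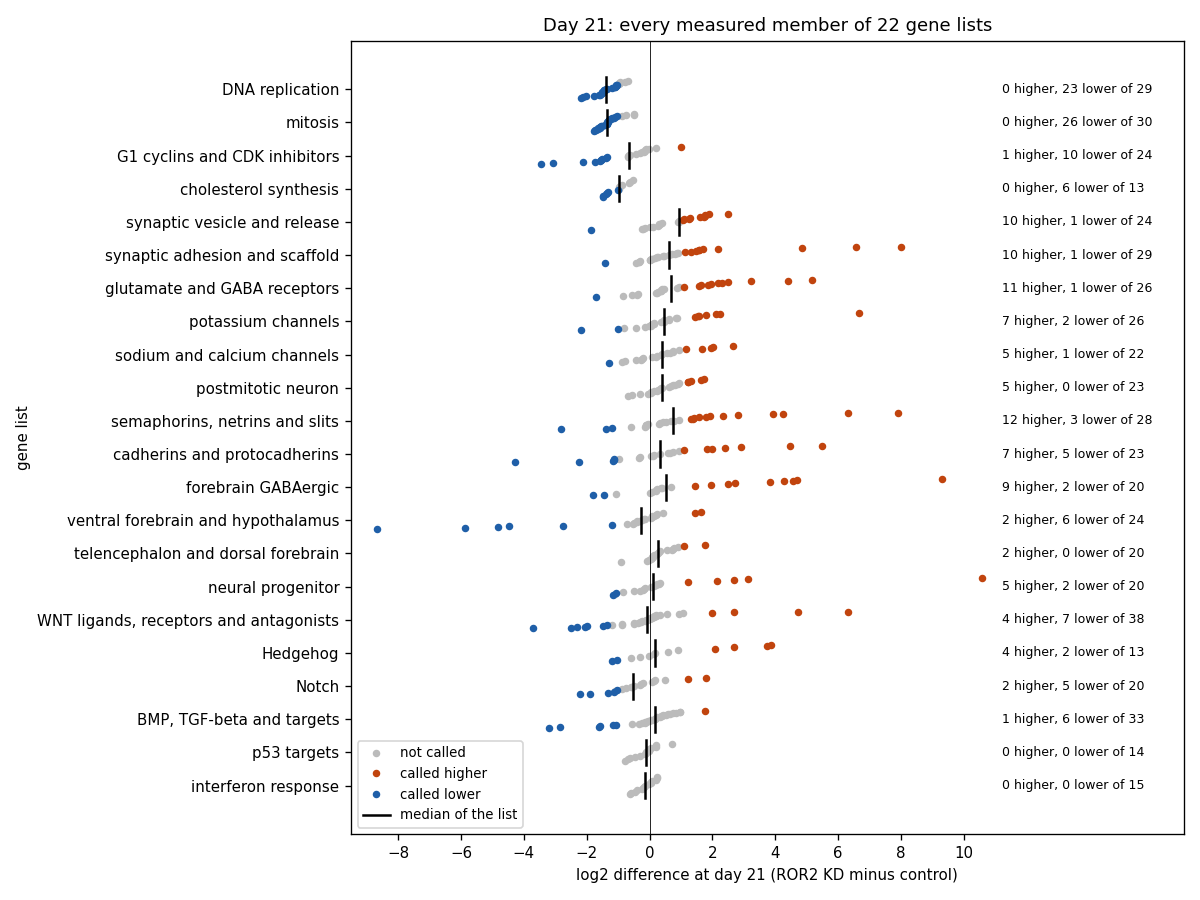
The log2 difference on day 21 (horizontal axis, *ROR2* KD minus control) is plotted for each measured member of 22 gene lists (vertical axis). Coloured points are called genes, other points are genes not called, and the black bar is the median of the list. Among the 22 lists plotted, medians are lowest for DNA replication (-1.40) and mitosis (-1.34) and highest for synaptic vesicle and release (0.93).

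Axon guidance genes of the semaphorin, netrin and slit systems gave 12 higher and 3 lower of 28 (median 0.73). Besides *SEMA3C* and *SEMA3E*, the class 3 ligands *SEMA3A* (1.37) and *SEMA3D* were called higher. *SEMA3D* was under background on all 6 arrays and was not called on the day 21 arrays alone (adjusted p = 0.142). *NRP1*, the neuropilin that binds class 3 semaphorins, read 11.95, 12.43 and 12.12 in control cells and 14.07, 13.70 and 13.42 in *ROR2* KD cells. *PLXNA2*, a plexin that transmits the signal, read 7.18, 7.36 and 7.32 against 10.05, 10.57 and 9.71, at least 3.43-fold higher, and *PLXNA4* was at least 2.3-fold higher. No array of one line fell within the other in these receptors.

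*NTN1*, the netrin ligand, read 9.47, 10.14 and 9.56 in control cells and 7.96, 6.35 and 6.39 in *ROR2* KD cells, at least 3.97-fold lower. Its receptor *DCC* read 13.26, 13.01 and 13.34 against 14.70, 14.79 and 14.39. *UNC5D*, a repulsive netrin receptor, read 4.47, 4.46 and 4.89 against 9.07, 8.85 and 8.68. The ligand was lower on each KD array, and both receptors were higher on each. The slit ligands went both ways, with *SLIT3* at least 1.91-fold higher and *SLIT2* lower (-1.39), and their receptor *ROBO1* was higher by 1.31.

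Among 21 ephrin and Eph genes, which mediate contact repulsion, 1 was higher and 4 were lower. *EPHA3* read 11.11, 11.60 and 10.84 in control cells and 14.96, 15.01 and 15.04 in *ROR2* KD cells, a difference of 3.82 (SE 0.27, adjusted p = 1.7e-09). *EPHA5* read 9.26, 8.45 and 9.56 against 5.90, 6.14 and 6.40, and *EFNA5*, a ligand of EphA receptors, read 13.45, 13.84 and 13.60 against 12.18, 11.91 and 12.18. The 2 EphA receptors were separated in opposite directions. Cadherins and protocadherins, which sort cells by homophilic adhesion, gave 7 higher and 5 lower of 23. *CDH7* read 7.02, 7.18 and 7.08 against 12.69, 12.33 and 12.71 and *CDH20* read 3.98, 4.77 and 4.46 against 9.05, 8.86 and 8.74, at least 19-fold and 1.47-fold higher respectively. *CDH9* read 11.88, 11.75 and 11.49 against 8.01, 7.31 and 6.96, and *CDH6* read 13.32, 13.12 and 13.18 against 11.02, 11.10 and 10.77. No array overlapped in these 4 cadherins, which for *CDH9* was a condition of its selection.

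Cell cycle genes were lower almost throughout. Of 29 genes of DNA replication, 23 were called lower and none higher, and of 30 genes of mitosis, 26 were lower and none higher. The medians were -1.40 and -1.34, after -0.35 and -0.70 on day 14. With an unadjusted p under 0.05 limma placed 29 replication and 29 mitosis genes lower and none higher, and a t-test at that level with a fold above 2 placed 22 and 26 lower and none higher. With the 6 day 21 arrays alone, limma called 14 of each list lower. Beside these counts, the summed log2 level of 5 neuron markers was 18.27 to 18.38 on the control arrays and 18.82 to 18.89 on the KD arrays, and that of 7 progenitor markers was 17.90 to 18.02 and 17.68 to 17.82. The progenitor markers include *PAX6*, with means of 5.01 in control cells and 15.59 in *ROR2* KD cells. Of the others, *SOX2* (-0.86), *NES* (-1.08), *HES5* (-1.10), *FABP7* (-0.51) and *MSI1* (-0.18) were lower and *SOX1* (0.30) was higher, with only *NES* called. The part of neurons and progenitors in the result was not tested.

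In the replication group, *UHRF1*, which couples DNA methylation to replication, read 12.19, 12.05 and 12.06 in control cells and 10.05, 9.94 and 9.77 in *ROR2* KD cells. *MCM10*, a helicase loading factor, read 7.87, 7.5 and 7.51 against 6.05, 5.42 and 5.39, and *TYMS*, thymidylate synthase, differed by -2.12. The separation was complete in the 3 genes, although *MCM10* was under background. *MCM6*, a subunit of the replicative helicase, read 12.10, 12.28 and 12.25 against 10.82, 10.39 and 10.62 (-1.60, SE 0.20, adjusted p = 1.11e-05). *MCM6* was named after its value was seen, as the called replication gene whose promoter held the E2F letters below. In the mitosis group, *CCNB2*, a cyclin of mitotic entry, read 13.73, 13.77 and 13.76 against 12.28, 11.74 and 11.90. *KIF11*, a spindle kinesin, read 13.61, 13.59 and 13.54 against 12.07, 11.47 and 11.98, and *TPX2*, which activates Aurora A at the spindle, differed by -1.70. Every KD array was lower than every control array in these genes.

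The 250 bases before the starts of 3 of these genes are shown for the elements known from cell cycle promoters (RefSeq, GRCh38.p14). *MCM6* lies on the minus strand at chr2:135876444-135876693, *CCNB2* on the plus strand at chr15:59104896-59105145 and *KIF11* on the plus strand at chr10:92592880-92593129. Capitals mark the E2F forms TTTGGCGC and TTTCGCGC, which overlap each other on opposite strands in *MCM6*, the cell cycle homology region core TTTGAA and the CCAAT box, each on either strand.
MCM6: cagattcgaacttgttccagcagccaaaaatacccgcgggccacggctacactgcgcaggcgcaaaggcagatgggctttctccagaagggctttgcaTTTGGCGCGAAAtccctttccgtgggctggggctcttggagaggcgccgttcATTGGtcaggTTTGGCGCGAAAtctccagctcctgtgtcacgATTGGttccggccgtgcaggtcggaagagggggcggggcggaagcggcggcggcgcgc
CCNB2: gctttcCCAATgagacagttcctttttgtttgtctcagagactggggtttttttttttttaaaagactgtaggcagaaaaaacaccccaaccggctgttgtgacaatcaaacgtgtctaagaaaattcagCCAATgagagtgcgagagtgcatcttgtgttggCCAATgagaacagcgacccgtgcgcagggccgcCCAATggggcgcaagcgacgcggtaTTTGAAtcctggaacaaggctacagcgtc
KIF11: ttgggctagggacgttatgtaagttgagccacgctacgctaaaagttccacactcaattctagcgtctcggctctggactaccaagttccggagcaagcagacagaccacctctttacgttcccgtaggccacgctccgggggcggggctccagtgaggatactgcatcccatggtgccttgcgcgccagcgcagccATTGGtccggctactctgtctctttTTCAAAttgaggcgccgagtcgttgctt
TTTGAA lay 29 bases before the start in *CCNB2* and 28 in *KIF11*. Of the 26 called mitosis genes, 22 had a promoter sequence, of which 10 held TTTGAA and 17 held CCAAT. Over all 27305 promoters the shares were 13.57% and 33.04%. Of the 23 called replication genes, 21 had a promoter sequence, of which 14 held CCAAT and 1, *MCM6*, held both E2F forms, which were in 0.55% and 0.47% of all promoters.

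Regulators of the G1 phase gave 1 higher and 10 lower of 24 (median -0.67). The higher member, *MYC* (1.01), was not called by limma on the 6 day 21 arrays alone (adjusted p = 0.289). With each array centred on its median its difference was 0.98 (adjusted p = 0.0793), also not called. *CCND1*, cyclin D1, read 12.93, 12.68 and 12.81 in control cells and 9.59, 8.93 and 9.50 in *ROR2* KD cells, a difference of -3.47 (SE 0.21, adjusted p = 1.7e-10). *CDK6*, its kinase partner, read 9.05, 8.78 and 9.25 against 6.31, 5.99 and 5.59, at least 2.45-fold lower. *E2F8*, a repressor of the E2F family, read 9.14, 9.36 and 8.92 against 7.20, 7.05 and 6.84, and *MYCN*, a growth factor-dependent transcription factor, read 10.96, 10.86 and 11.02 against 9.44, 9.50 and 9.27. The lines were apart in each. *CDKN1C*, which inhibits cyclin-dependent kinases, was also lower (-1.53). None of 14 p53 target genes was called by limma, with 1 higher and 3 lower at an unadjusted p under 0.05 and none by a t-test with a fold above 2.

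Histone genes transcribed in S phase, a family chosen after values had been seen, followed the replication genes in direction. Of 57, 16 were called lower and none higher, and the median was -0.79. The family median per array was 11.65, 11.98 and 11.93 in control cells and 10.38, 10.09 and 10.54 in *ROR2* KD cells. *H1-3*, a linker histone, had the largest difference, with 12.26, 13.07 and 12.46 against 9.70, 9.45 and 9.97. The 4 copies of *FAM72*, whose sequences are near-identical so that probes may not tell them apart, were lower by 1.90 to 2.04 in size and were called lower on day 14 as well.

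**Figure D3:**
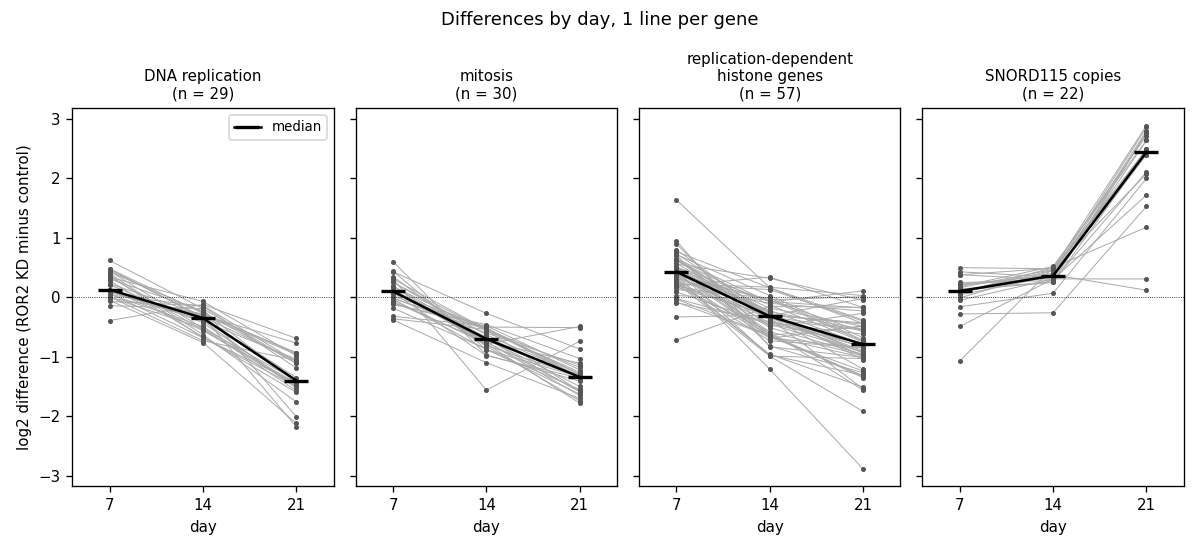
The log2 difference between *ROR2* KD and control (vertical axis) is plotted on days 7, 14 and 21 (horizontal axis) with 1 grey line per gene and the median in black, for 29 DNA replication genes, 30 mitosis genes, 57 replication-dependent histone genes and 22 *SNORD115* copies. The medians on day 21 are -1.40, -1.34, -0.79 and 2.44.

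WNT ligands, receptors and antagonists gave 4 higher and 7 lower of 38. *WNT5A*, the ligand of *ROR2*, read 8.97, 8.74 and 9.0 in control cells and 5.02, 5.38 and 5.18 in *ROR2* KD cells, at least 2.25-fold lower, with a difference of -0.33 on day 14. *WNT7A*, a forebrain WNT, read 7.24, 7.87 and 8.17 against 12.48, 12.50 and 12.41, at least 17.6-fold higher. Each ligand separated the lines, in opposite directions. Among the Frizzled receptors, *FZD5* read 11.92, 12 and 11.90 against 9.69, 9.20 and 9.42, and *FZD4* read 8.85, 8.68 and 8.69 against 6.83, 6.34 and 6.86. *FZD1* (-1.49) and *FZD6* (at least 1.91-fold) were lower too, so that *FZD7* was the called Frizzled gene that was higher. The adjusted p of *FZD1* was 0.0519 without control replicate 2.

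The secreted WNT antagonists were also divided. *SFRP1* read 12, 12.11 and 11.72 in control cells and 14.08, 13.79 and 13.91 in *ROR2* KD cells. *SFRP2* read 13.46, 13.47 and 13.58 against 16.36, 16.21 and 16.04. *FRZB*, of the same family, read 15.79, 15.57 and 15.58 against 13.19, 13.44 and 13.39. Thus 2 of these antagonists were higher on each KD array and 1 was lower on each. Of 13 planar polarity genes 2 were higher and none lower. *FAT4*, an atypical cadherin, read 11.61, 11.73 and 10.98 against 16.95, 17.10 and 16.91, a difference of 5.55 (SE 0.27, adjusted p = 3.5e-12), whereas *VANGL2*, a core polarity protein, differed by 0.80 (adjusted p = 0.0208), under the fold threshold. *ROR1*, the paralogue of *ROR2*, read 9.33, 8.92 and 9.06 against 9.87, 10.02 and 10.28, and its difference of 0.95 (adjusted p = 0.00498) was under the fold threshold as well. Targets of β-catenin gave 1 higher and 3 lower of 13, among them *TNFRSF19* (3.0) and *CCND1*.

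Hedgehog pathway genes gave 4 higher and 2 lower of 13. *BOC*, a co-receptor of *SHH*, read 9.35, 9.85 and 9.90 in control cells and 13.90, 13.55 and 13.27 in *ROR2* KD cells, a difference of 3.87 (SE 0.24, adjusted p = 1.4e-10). *GLI2* read 5.24, 5.49 and 5.27 against 9.27, 9.32 and 8.60, and *GLI3* read 11.16, 10.86 and 11.27 against 13.98, 14.07 and 13.31; both are transcription factors of the pathway. Receptor and factors were separated without overlap. *GLI1* (0.18) and *PTCH1* (0.58), whose transcripts report pathway activity, were not called (adjusted p = 0.907 and 0.127). *GLI1* was under background on all 6 arrays, so a difference in it could have been missed.

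Genes of BMP and TGF-β signalling gave 1 higher (3.03%) and 6 lower (18.2%) of 33, against 3.24% and 4.48% of protein-coding genes. The 6 lower genes were all under background on all 6 arrays. The median was 0.16, with 14 differences negative and 19 positive. *BMP7*, a ligand, read 7.66, 7.92 and 7.78 in control cells and 4.99, 3.85 and 4.88 in *ROR2* KD cells, and *NOG*, a BMP antagonist, read 6.98, 7.27 and 6.87 against 4.80, 3.94 and 3.80, all under background. *CHRDL1*, another antagonist, read 10.01, 9.86 and 9.98 against 11.58, 11.61 and 11.95. The 2 antagonists stood apart in opposite directions. Notch genes gave 2 higher and 5 lower of 20. *JAG1*, a ligand, read 9.73, 10.09 and 9.56 against 11.59, 11.80 and 11.38, *DLK1*, an imprinted noncanonical ligand, read 16.60, 16.47 and 16.70 against 14.88, 14.31 and 14.90, and *HEY1*, a Notch target, read 9.31, 9.0 and 8.98 against 6.88, 6.74 and 7.02. The target *HES1* was at least 1.32-fold higher, after a difference of -1.37 on day 14, but was not called on the day 21 arrays alone (adjusted p = 0.0771), and *HES5*, another target, was not called (-1.10, adjusted p = 0.123).

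FGF pathway genes, of which 11 of 27 had been called lower and 2 higher on day 14, gave 2 lower and 2 higher on day 21. *ETV5*, a transcription factor induced by FGF, read 3.21, 3.29 and 3.80 in control cells and 6.15, 6.21 and 6.94 in *ROR2* KD cells, under background throughout, after a difference of -3.46 on day 14. *FGFR3* read 7.10, 7.48 and 6.96 against 9.68, 10.08 and 9.82, at least 2.89-fold higher. *IL17RD*, a feedback inhibitor, read 10.19, 10.28 and 10.22 against 8.67, 8.38 and 9.01. *SPRY1*, an inhibitor of the same kind, differed by -1.15 after -5.36 on day 14, and by -0.90 (adjusted p = 0.0623) without *ROR2* KD replicate 2. Of 13 neurotrophin and GDNF genes 4 were higher and none lower. *GFRA2*, a co-receptor for neurturin, read 6.89, 6.58 and 6.35 against 11.47, 11.07 and 10.95, at least 7.11-fold higher. Of 13 retinoic acid genes 2 were lower, and *RDH10*, which makes the precursor of retinoic acid, read 10.80, 10.65 and 10.60 against 7.98, 7.19 and 7.38, at least 7.73-fold lower.

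The extracellular matrix list gave 6 higher and 8 lower of 32, and the collagen, laminin and integrin list 3 higher and 5 lower of 31. *VCAN*, a proteoglycan of developing brain, read 15.11, 14.94 and 14.83 in control cells and 16.45, 16.32 and 15.99 in *ROR2* KD cells. *FN1*, fibronectin, read 10.88, 10.96 and 10.69 against 9.69, 9.35 and 9.43, and *MMP2*, a gelatinase, read 9.56, 9.68 and 9.72 against 8.58, 8.33 and 8.63. Both lower genes separated the lines, and *MMP2* was not past the threshold on the 6 day 21 arrays alone (adjusted p = 0.0598). *FN1* and *MMP2* were the called members among 16 genes of the epithelial to mesenchymal transition. None of 15 epithelial genes was called by limma (1 higher at an unadjusted p under 0.05, none by a t-test with a fold above 2). Of those 15, 2 were above background on at least 3 of the 6 arrays. Targets of YAP and TEAD gave 5 higher and 1 lower of 14. *CCN1* read 6.83, 7.64 and 6.91 against 10.71, 10.30 and 10.21 and *CCN2* read 6.07, 5.93 and 5.37 against 9.47, 9.43 and 9.07; both encode matricellular proteins. *YAP1*, the co-activator itself, was the lower member, with 13.13, 13.22 and 13.28 against 11.83, 11.95 and 11.93.

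Metabolic genes were lower where called, with few exceptions. Of 19 genes of glycolysis and hypoxia, 5 were lower and 1 higher. *LDHA*, lactate dehydrogenase, read 14, 13.90 and 14.58 in control cells and 10.81, 10.59 and 11.15 in *ROR2* KD cells, a difference of -3.31 (SE 0.23, adjusted p = 1.3e-09). *AK4*, a mitochondrial adenylate kinase, read 10.58, 10.72 and 10.71 against 6.36, 6.30 and 6.36, at least 7.62-fold lower. *SLC2A1*, the glucose transporter, was the higher member, with 11.72, 11.91 and 11.95 against 13.53, 12.94 and 13.32, after a difference of -1.0 on day 14. Of 13 genes of cholesterol synthesis 6 were lower and none higher, and the median was -0.97, after -0.72 on day 14. *DHCR7*, the last enzyme of the pathway, read 14.24, 14.16 and 14.48 against 12.97, 12.75 and 12.75, and *SQLE*, squalene epoxidase, read 15.16, 15.03 and 14.81 against 13.72, 13.54 and 13.82. All 13 had an unadjusted p under 0.05 and were lower. Of 16 imprinted genes 5 were lower and none higher, with *NNAT* and *DLK1* described above and *PEG10*, a retrotransposon-derived growth gene, lower by 1.29 in size.

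Metallothioneins, small proteins that bind zinc and copper, gave 4 higher and none lower of 8 (median 1.08). *MT1X* read 9.64, 9.62 and 9.93 in control cells and 12.17, 12.08 and 11.86 in *ROR2* KD cells, a difference of 2.31 (SE 0.25, adjusted p = 1.5e-06), after 2.98 on day 14. *MT1F* read 5.50, 5.46 and 5.26 against 7.53, 7.68 and 8.06. The genes of this family are similar in sequence, and cross-hybridisation between MT1 members was not tested. *MT2A*, of another subclass, was not called (0.42, adjusted p = 0.67). The 250 bases before the start of *MT1X* are shown for the metal response element core (RefSeq, GRCh38.p14, chr16:56682220-56682469, plus strand), with the forms TGCACNC and TGCGCNC in capitals on either strand.
MT1X: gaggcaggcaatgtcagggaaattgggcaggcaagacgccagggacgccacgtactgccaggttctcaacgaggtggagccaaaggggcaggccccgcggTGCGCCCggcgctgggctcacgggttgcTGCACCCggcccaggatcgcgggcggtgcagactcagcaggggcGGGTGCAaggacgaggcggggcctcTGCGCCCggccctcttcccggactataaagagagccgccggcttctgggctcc
These forms were in 9.73% and 16.86% of all 27305 promoters, and both were in the 2 called metallothioneins with a promoter sequence, *MT1H* and *MT1X*.

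Of 159 small nucleolar RNA genes, 28 were called higher (17.6%) and none lower. Most were copies of *SNORD115*, brain-enriched C/D box RNAs of the imprinted chromosome 15 locus, of which 19 of 22 were higher with a median of 2.44. The family median per array was 9.27, 9.25 and 9.78 in control cells and 11.90, 11.26 and 12.12 in *ROR2* KD cells, and no copy was called on day 14 (median 0.37). The copies are near-identical, so that their counts are not independent. *SNORD115-25* read 6.51, 7.56 and 7.64 against 10.36, 9.53 and 10.50, at least 3.48-fold higher. *NR2F2-AS1*, an antisense transcript at *NR2F2*, read 3.59, 3.71 and 4.40 against 7.68, 8.06 and 7.48. Long noncoding genes gave 31 higher (1.30%) and 17 lower (0.711%) of 2392, together 2.01%, and microRNA genes 7 higher (0.481%) and 1 lower (0.0687%) of 1456.

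Some called genes lay side by side in the gene order of RefSeq (GRCh38.p14). On chromosome 14, *MBIP* (-1.98), *SFTA3* (-6.98), *NKX2-1* (-5.86) and *NKX2-1-AS1* (-3.58) were neighbours and all lower. *SFTA3* read 14.27, 14 and 14.12 in control cells and 7.43, 6.99 and 7.04 in *ROR2* KD cells, at least 84.4-fold lower, and *MBIP*, a regulator of MAP kinase signalling, read 15.73, 15.50 and 15.45 against 13.30, 13.63 and 13.79. On chromosome 13, *SOHLH2* (at least 1.64-fold lower), *CCDC169* (at least 2.19-fold lower) and *SPART* (-1.97) were neighbours, the first 2 joined by a read-through transcript that may share probes with both. On chromosome 7, *PCLO*, *SEMA3E*, *SEMA3A* and *SEMA3D* formed a run of higher genes. Transcripts of such neighbours can overlap, and their clusters were not tested for shared probes. *MBIP*, *SOHLH2*, *CCDC169* and *SPART* were named after their values were seen.

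Markers of other cell types bore on these lists as follows. All markers of neural crest (6), astrocytes (4), retinal pigment epithelium (6), mesoderm and endoderm (6) and blood (2) were under background on all 6 arrays, and *GFAP*, of astrocytes, differed by 0.09. *NGFR*, of neural crest, was called higher there (1.63), and the summed log2 level of that list was 7.68 to 7.81 in control cells and 8.08 to 8.26 in *ROR2* KD cells. Of 4 choroid plexus markers, *KCNJ13* and *CLIC6* were higher (6.68 and 2.87), *OTX2* was lower and *TTR*, the defining one, was not above background; the summed log2 level of the list was 14.67 to 14.94 in control cells and 12.48 to 12.70 in *ROR2* KD cells. Of 4 endothelial markers, *TEK* was higher by 1.29 and the other 3 were under background, with summed levels of 7.18 to 7.30 and 8.10 to 8.47. *LUM*, the mesenchymal proteoglycan lumican, was higher by 3.29 under background, and the summed mesenchymal level was 8.98 to 9.66 and 9.36 to 9.92. *OLIG1* and *OLIG2* were the called markers of 5 for oligodendrocytes, both lower. *OLIG1* was under background on all 6 arrays and *OLIG2* was above it on only 1, a control array. The part of these cell types in the results was not tested. Of the reference genes, *ACTB* differed by 0.19, and 2 of 11 were called lower, *TFRC*, the transferrin receptor (-1.35), and *GUSB*, a lysosomal enzyme (-1.21). The adjusted p of *GUSB*, 0.017, lay between 0.0633 and 0.103 without control replicate 2 or 3 or *ROR2* KD replicate 2 or 3.

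The differences on day 21 were set beside those on day 14, which came from other arrays of the same lines. Among the 1569 genes called on day 21, 1327 had the same sign on day 14, with r = 0.66 across genes, which are not independent. Of those higher on day 21, 174 were already called higher on day 14, and of those lower, 112 were already lower, while 7 and 7 had been called in the opposite direction. The change of the difference between the days was called for 500 clusters, 306 positive (0.82%) and 194 negative (0.52%).

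Genes with a changed difference followed several courses. *PAX6* fell by 7.90 in control cells between days 14 and 21 and moved by 0.44 in *ROR2* KD cells. *BOC* took a like course, with -3.34 in control cells and 0.15 in KD cells, as did *ETV5* with -6.28 and 0.18. In these genes the control line changed by more than the KD line. *SST* moved by 0.18 in control cells and 8.97 in KD cells, and *SEMA3C* by -0.09 and 6.89, so that here the larger change was in the KD line. *SLITRK6* moved by -1.84 and 6.19. *LHX8* was higher on day 21 than on day 14 in both lines, by 9.72 in control cells and 5.46 in KD cells, and *OLIG2*, a factor of ventral progenitors and oligodendrocytes, by 3.63 in control cells against -0.42 in KD cells. *DLX5* moved by 6.75 in control cells and 1.72 in KD cells, so that the lines came closer. *CDH6* moved by 3.85 and -0.17, turning a difference of 1.77 on day 14 into one of -2.24 on day 21.

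**Figure D4:**
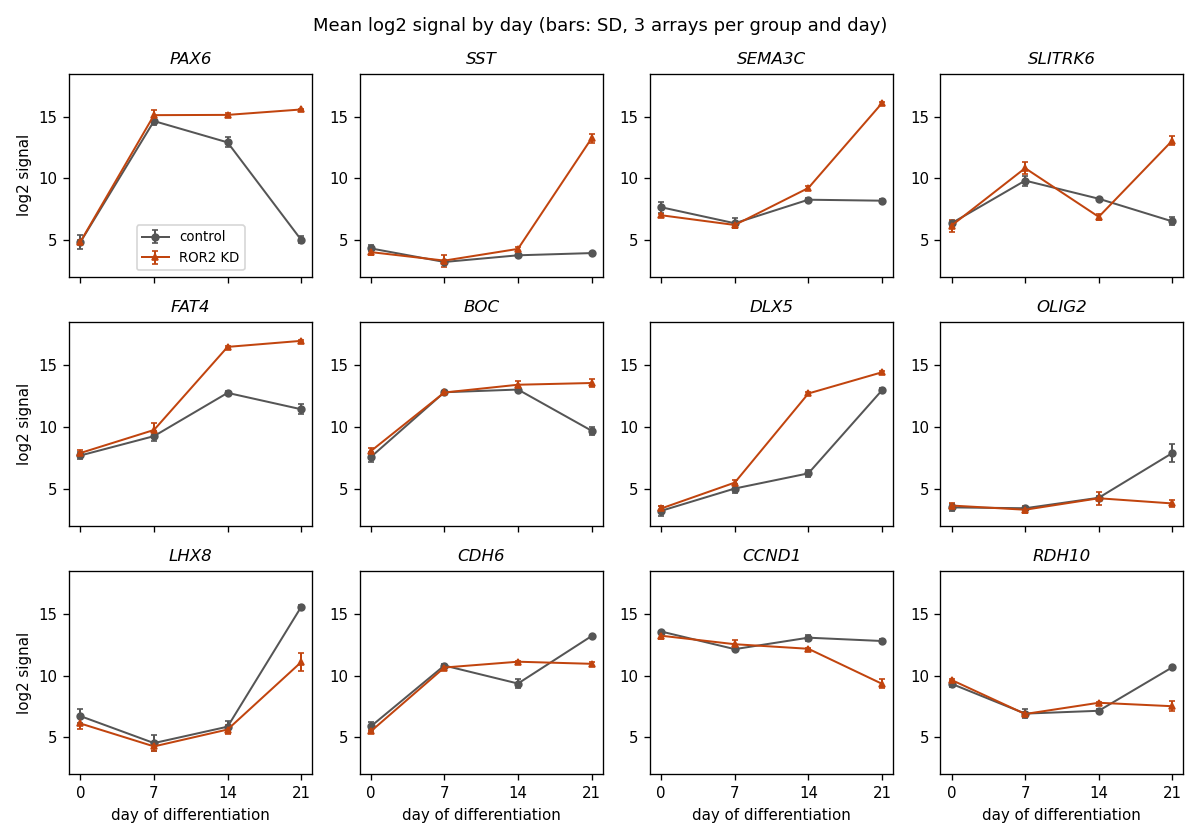
The mean log2 signal (vertical axis) with its SD over 3 arrays is plotted by day of differentiation (horizontal axis) for 12 genes, with control in grey circles and *ROR2* KD in orange triangles. *PAX6*, *BOC* and *SLITRK6* decline in control cells after day 7 or 14, *SST* and *SEMA3C* are higher in *ROR2* KD cells on day 21, and *LHX8*, *OLIG2*, *CDH6* and *RDH10* are higher in control cells on day 21.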

How the data were processed

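Total RNA of 24 samples was hybridised to Clariom D arrays. The authors deposited log2 signals, summarised with RMA in Transcriptome Analysis Console per the submitters' processing notes; versions and genome build of that step are not given in the labels. Values reached 19.8 on day 21, above what a 16-bit scanner gives, so the scale is the deposited one and not raw intensity, and folds rest on it. The deposited values were used without further normalization. Control probe sets (2995 of 138745) were left out, and 135750 clusters were tested, of which 36176 carried 1 symbol, 1119 several and 98455 none. Where several clusters carried only a given symbol, the one with the highest mean signal on the 24 arrays stood for the gene.

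limma 3.58.1 (R 4.3.3) was fitted with 8 group means on all 24 arrays (16 residual and 6.36 prior degrees of freedom), with Benjamini-Hochberg adjustment over all clusters, two-sided. Calls needed an adjusted p under 0.05 and a fold above 2. Calculations around the fit used Python 3.11.15, pandas 2.3.3, numpy 2.4.6 and matplotlib 3.10.9, and the fit was tested on simulated data. Array number limits precision: 3 arrays per group. p-values measure the spread between replicate arrays of 1 transduced line each. Bounds ("at least") set the brighter group's mean against the mean of the higher of background level and signal in the dim group.

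Named genes were *ROR2*, the markers the study measured, the 12 largest differences each way among coding and up to 5 among noncoding genes, up to 4 called members each way of each gene list with the members it is known for, and the 10 largest changes between days 14 and 21; other list members, families, runs of neighbours and promoters were named after values were seen. The largest coding and noncoding differences were taken only from called genes whose groups of arrays did not overlap. The members and lists were chosen with earlier results of these data known. Lists are described by counts and medians, without a test. Samples with the same replicate number were not treated as paired: on day 21 the correlation of their residuals was 0.078, 0.022 and 0.224. List genes without a single-symbol cluster were not analysed here. Alternatives covered the arrays fitted, a block, scaling, filters, thresholds, a t-test and leaving out each array.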

Additional observations from a re-analysis of the deposited data

Results flagged for a closer look

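The difference between *ROR2* KD and control cells changed between day 14 and day 21 for 500 clusters with a symbol, by a limma test of the change itself. Of the 33 genes with the largest differences or the largest changes, 27 passed that test. The genes with the largest changes had been picked among those that passed it, so this count was partly fixed beforehand. *ROR2* passed the test with a change of 1.68. Values are the day 21 difference minus the day 14 difference on the log2 scale, and no explanation was tested.

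Of the 725 genes higher on day 21, 224 had a called positive change, among them those given here. *KCNJ13* (0.22) and *AMBN* (1.18), of the 12 largest positive differences, had no called change. For *ETV5*, *SLITRK6*, *SMOC1* and *FAR2* the day 14 difference had been negative (-3.46, -1.47, -0.89 and -0.66). The change was 8.79 for *SST*, 8.34 for *PAX6*, 8.03 for *SLITRK6*, 6.97 for *SEMA3C*, 6.46 for *ETV5*, 5.82 for *CLSTN2*, 5.30 for *SEMA3E*, 5.22 for *GRIN2B* and 5.15 for *FAR2*, a fatty acyl-CoA reductase. It was 4.78 for *SMOC1*, a matricellular protein, 4.68 for *TKTL1*, 4.52 for *FZD7*, 3.52 for *NTRK2* and 3.14 for *HS3ST3B1*.

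The change was negative for the *DLX* genes, whose differences had been positive on day 14, with -5.81 for *DLX6-AS1*, an antisense transcript of the *DLX* locus, -5.03 for *DLX5* and -4.24 for *DLX1*. *DLX6-AS1* was called higher on day 21 in the fit to all arrays (1.26), but its adjusted p was 0.106, 0.0856 and 0.183 without control replicates 1, 2 and 3, and 0.109 and 0.239 without *ROR2* KD replicates 1 and 2. Of the 844 genes lower on day 21, 129 had a called negative change. Among them, the change was -4.86 for *SFTA3*, -4.41 for *SPON1*, -4.37 for *LHX6*, -4.32 for *CDH9*, -4.26 for *LHX8*, -4.05 for *OLIG2*, -2.59 for *LITAF*, an endosomal membrane protein, -2.53 for *NKX2-1* and -1.77 for *AK4*. *CDH6* changed by -4.02, from higher to lower.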

How the results depend on the processing

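The counts of 796 higher and 890 lower clusters moved by over 1.5 times under 3 alternatives. With limma on the 6 day 21 arrays alone they were 462 and 387, with a t-test and Benjamini-Hochberg adjustment 87 and 49, and with a fold above 4 they were 278 and 116. Leaving out 1 array of either line in turn gave 658 to 859 higher and 673 to 984 lower clusters. Centring each array on its median moved the share of higher calls from 47.2% to 44.1%, and quantile normalization moved it to 41.9%. A replicate block within each day gave 740 and 834 clusters and ended the calls of 6 named genes; the samples share no more than a number. The *ROR2* difference stayed between -0.79 and -0.99 and uncalled when arrays were left out. The 500 clusters with a changed difference became 776 with 1 cluster per symbol, 287 with a fold above 4, 333 with an adjusted p under 0.01 and 397 to 505 with an array left out. Of 229 named genes called, 186 were called under all limma alternatives that kept the thresholds. The t-test settings, under which far fewer clusters were called after adjustment, are not part of that count. *GFAP* (0.09, not called) lay between -0.04 and 0.21 with an array left out, and was -0.03 without *ROR2* KD replicate 3. Signals near background limit genes given with a lower bound.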

Other observations

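Heparan sulphate 3-O-sulphotransferases, which add the rarest modification of heparan sulphate chains and set which ligands bind them, formed a family chosen after values were seen. Of 7 measured, 4 were called higher in *ROR2* KD cells and none lower. *HS3ST3A1* read 5.53, 5.04 and 5.18 in control cells and 10.26, 10.20 and 9.62 in *ROR2* KD cells, and *HS3ST4* read 7.00, 6.69 and 6.70 against 10.02, 10.01 and 10.66. Every KD array exceeded every control array in both. *HS3ST3A1* was at least 3.25-fold and *HS3ST4* at least 3.73-fold higher, the latter after a difference of -0.58 on day 14. *HS3ST1* was called higher at signals under background on all 6 arrays. *SCGN*, the calcium-binding protein secretagogin of some interneurons, read 4.74, 4.49 and 4.48 against 7.86, 8.41 and 8.29.

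Genes with an *ARMCX* symbol, most of them armadillo repeat proteins of the X chromosome, were also chosen after values were seen. Of 8, 4 were higher and none lower. The 8 included *ARMCX7P*, named as a pseudogene and called higher, and the read-through *ARMCX5-GPRASP2*, not called. *ARMCX2* read 11.48, 11.67 and 11.74 in control cells and 14.45, 14.15 and 14.35 in *ROR2* KD cells, a difference of 2.69 after 2.54 on day 14. Of 47 genes with a kinesin symbol, antisense and pseudogene entries included, 2 were higher and 11 lower, several of them members of the mitosis list.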
